A study of Mus musculus with 24 samples.

Results

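The immediate early genes described here are Fos, Fosb, Jun, Junb, Egr1, Zfp36, Dusp1, Ier2, Atf3 and Ccn1, which the array design names Cyr61. They were found as all probes whose gene name in the files, or whose current symbol through the probe's accession, was one of these names. The search gave 13 probes for the 10 genes, out of 41174 probes and 27845 gene names on the array. RNA of neonatal female mouse brain and liver was hybridised to single-colour Agilent arrays, 24 arrays in all, with 4 arrays for each of 3 groups in each tissue. NC were normal control pups made by intracytoplasmic sperm injection (ICSI), in which a sperm is injected into an egg. CC were pups cloned by nuclear transfer from cumulus cells, which are somatic cells of the ovarian follicle. G20 were also derived from cumulus cells and were clones of generation 20, made by cloning from clones again and again. Pups of the 3 groups were hybrids, written (C57BL/6 x DBA2) x 129/Sv, were labelled as newborn females, and the labels name no transgene or treatment. All controls thus came from manipulated eggs, and all clones from 1 donor cell type. The comparisons ask whether clones differ from controls and whether repeated cloning adds to such differences. NC and CC arrays carry animal numbers that recur in brain and liver. The G20 arrays share 1 source name, so that only their titles number them as separate samples, and p-values here cover only the scatter among the arrays of a group, part of which can be technical.

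Immediate early genes are transcribed within minutes of a stimulus, without new protein synthesis, when kinases such as the MAP kinases act on factors already bound at their promoters, among them serum response factor with its Elk partners and CREB. Their mRNAs are short-lived. Fos, Fosb, Jun, Junb and Atf3 encode leucine-zipper proteins that pair to form AP-1 and related dimers, Egr1 encodes a zinc-finger activator, and Dusp1 and Zfp36 encode brakes on the response. In brain the genes are best known as markers of neuronal activity, and in liver as a first step after injury, partial liver removal or growth factor signals.

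A level below is the log2 processed signal of a probe minus the 75th percentile of all spots of that array, so that 0 is a moderately bright spot. Levels of different genes are not set against each other, because probes differ in brightness per transcript. In brain that percentile lay at a signal between 814 and 935 for NC, between 724 and 864 for G20 and between 402 and 465 for CC. In liver it lay between 276 and 341 for NC, between 439 and 561 for G20 and between 239 and 269 for CC. The number of arrays limits the precision. Within a tissue, NC and G20 arrays shared a scan session, whereas CC arrays had a later one, in which both tissues were read. The 4 arrays of a group in a tissue sat together on 1 slide. Group therefore cannot be told apart from slide in any comparison, or from scan session in those with CC. Neuron markers summed to 7.08 to 7.26 in brain and -1.98 to 1.15 in liver, where the highest value was a CC array. The 4 hepatocyte markers measured on every liver array (Afp, Ttr, Apoa1 and Serpina1b) summed to 9.44 to 9.59 in NC liver, 9.25 to 9.53 in G20 and 9.03 to 9.16 in CC, and Apoa1 and Serpina1b were not well above background on any brain array. In whole tissue, fewer cells of a type and less RNA per cell cannot be told apart.

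The probes of Fos and Jun were printed at 10 spots each, and the SD between spots of 1 array had a median of 0.11 (log2) for Fos in brain and 0.12 in liver, and of 0.10 for Jun in brain and 0.10 in liver. A single Fos spot stood apart. On the array of NC liver replicate 2 a spot that carried no outlier flag read 4.19, while the next brightest of the 10 read -0.29 and the lowest -0.49. The mean over the spots of that array was 0.09 and the median -0.32. Fos values in liver are therefore given with the mean and, where it matters, with the median over spots, an alternative chosen after that spot was seen. No member was saturated on any array, and all 10 passed the filter of the test in both tissues, which asked that every array of at least 1 group be well above background. The Fosb probe was well above background on 9 of 12 brain arrays and 10 of 12 liver arrays. The Fosb signal before scaling ran from 4.58 to 24.7 in brain CC, where 1 of 4 arrays was well above background. The Fos probe lies at chr12:86366053-86366112, that of Jun at chr4:94541191-94541250, that of Zfp36 at chr7:28085873-28085932, that of Dusp1 at chr17:26233451-26233508, that of Atf3 at chr1:192871283-192871342 and that of Ccn1 at chr3:145584609-145584668. These positions are of the mouse build mm8 as the files give them, and exon or UTR status was not analysed here.

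In liver, all 10 genes had a higher mean in G20 than in NC, and 3 of them passed the test. Zfp36, which encodes tristetraprolin, a protein that binds AU-rich elements and speeds mRNA decay, was 1.87-fold higher. Dusp1, a phosphatase that switches off MAP kinases, was 1.61-fold higher, and Ccn1, a secreted matrix protein of the CCN family, was 2.53-fold higher. A gene was called where limma's adjusted p, over all 16364 genes tested, was under 0.05. By that rule 7.31% of all genes were called and 4.31% were called higher, against 3 of 10 members. The median difference of the 10 members was 0.92 (log2), and that of all genes was 0.03. A mean above that of NC was found for 55.5% of all genes. The direction held for all 10 members under each alternative except the normexp background correction, where Fosb turned to -0.87 (adjusted p = 0.109).

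Zfp36 read 3.06, 2.97, 3.18 and 3.28 in the 4 G20 livers, against 1.51, 2.34, 2.59 and 2.45 in the NC livers. Every G20 array stood above every NC array, and the G20 arrays lay within 0.31 of each other. The difference was 0.90 ± 0.22 (SE, n = 4 and 4; limma adjusted p = 0.0306). A second Zfp36 probe, at chr7:28085681-28085740, read between -1.05 and -0.76 in G20 and between -3.24 and -1.67 in NC. When every probe was tested on its own, that probe gave a difference of 1.39 ± 0.27 (limma adjusted p = 0.012). Both probes therefore placed Zfp36 higher in G20.

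Dusp1 read 2.42, 2.65, 2.58 and 2.90 in G20 livers and 1.37, 2.29, 2.16 and 1.97 in NC livers. The groups did not overlap, though the lowest G20 array was only a little above the highest NC array. The difference was 0.69 ± 0.19 (SE, n = 4 and 4; limma adjusted p = 0.0486). Ccn1 read 1.97, 0.86, 1.04 and 2.29 in G20 and -0.06, 0.34, 0.02 and 0.51 in NC. Replicates 1 and 4 were the highest of the G20 livers, and all 4 lay above NC. The difference was 1.34 ± 0.35 (SE, n = 4 and 4; limma adjusted p = 0.0392). All 4 G20 arrays lay above all 4 NC arrays for 3 of the 10 members, which were these 3, and for 10.6% of all genes.

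The 250 bases before the start of these 3 genes and of Fos are shown because they are the stretch in which the shared regulation of immediate early genes is usually sought. They are from RefSeq promoter sequences of build GRCm38.p6, which were searched for 8 of the 10 genes, all but Egr1 and Ier2. Capitals mark each TGACG, the core of the cyclic AMP response element and of related ATF sites, on either strand, and each TATAAA. The window of Zfp36 is chr7:28379229-28379478 on the minus strand, that of Dusp1 chr17:26508473-26508722 on the minus strand, that of Ccn1 chr3:145649986-145650235 on the minus strand and that of Fos chr12:85473640-85473889 on the plus strand.
Zfp36: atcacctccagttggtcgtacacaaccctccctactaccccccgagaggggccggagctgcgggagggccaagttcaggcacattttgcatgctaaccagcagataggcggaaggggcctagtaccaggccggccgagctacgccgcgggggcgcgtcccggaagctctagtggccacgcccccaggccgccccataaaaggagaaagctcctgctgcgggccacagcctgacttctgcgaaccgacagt
Dusp1: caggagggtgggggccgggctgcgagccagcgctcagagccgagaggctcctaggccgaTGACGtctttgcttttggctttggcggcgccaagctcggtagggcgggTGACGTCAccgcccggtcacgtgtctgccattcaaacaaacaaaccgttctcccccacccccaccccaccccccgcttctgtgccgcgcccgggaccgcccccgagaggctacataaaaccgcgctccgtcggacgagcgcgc
Ccn1: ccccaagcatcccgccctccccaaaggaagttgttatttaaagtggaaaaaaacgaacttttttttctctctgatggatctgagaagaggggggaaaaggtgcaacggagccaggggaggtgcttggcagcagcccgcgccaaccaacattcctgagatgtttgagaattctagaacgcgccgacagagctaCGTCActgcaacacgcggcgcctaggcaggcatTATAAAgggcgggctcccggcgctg
Fos: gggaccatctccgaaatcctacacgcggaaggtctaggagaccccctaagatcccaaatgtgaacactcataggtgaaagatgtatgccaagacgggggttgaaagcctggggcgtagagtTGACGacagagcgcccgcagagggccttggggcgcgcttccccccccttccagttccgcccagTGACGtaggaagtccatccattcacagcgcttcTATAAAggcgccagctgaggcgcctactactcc

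TGACG was found in 6 of the 8 windows (Fos, Fosb, Junb, Dusp1, Atf3 and Ccn1), against 17.8% of all 32851 promoter windows of the same length. The full palindrome TGACGTCA was found in Dusp1 alone among the 8 and in 1.55% of all windows; it holds TGACG on both strands, which overlap. In Dusp1 it lies 143 to 136 bases before the start. TATAAA was found in Fos, 33 to 28 bases before the start, and in Ccn1, 25 to 20 bases before it, and in 12.4% of all windows. The CArG box, the sequence that serum response factor binds, was found in Zfp36 alone of the 8, 58 to 49 bases before its start. It was found in 1.47% of all windows. Bases farther than 250 before the start were not searched, nor were Egr1 and Ier2. The lack of a match therefore does not show that a gene has no such site. The AP-1 sequence TGACTCA was found in none of the 8 and in 4.46% of all. All motifs were searched on both strands. Of the 3 genes called in liver, Dusp1 and Ccn1 held TGACG and Zfp36 did not, while Atf3, which was not called, held it 7 to 3 bases before its start. These matches describe letters in a window and say nothing of binding.

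The other 7 genes had higher means in G20 liver but did not pass the test. Atf3, a stress-induced repressor of the ATF family, had the widest difference. Its level was 0.31, 0.85, 1.26 and 2.47 in G20 and -1.81, -0.16, 0.67 and -1.46 in NC. NC replicate 3 lay above G20 replicate 1, so the groups overlapped. The difference was 1.91 ± 0.57 (SE, n = 4 and 4; limma adjusted p = 0.0641).

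Fos, the AP-1 subunit after which the class is best known, read -0.23, 0.20, -0.51 and 0.55 in G20 and -1.97, 0.09, -0.87 and -1.62 in NC. The NC livers spread over 2.06 log2 units, and the groups overlapped. The difference was 1.09 ± 0.52 (limma adjusted p = 0.228), and 1.22 (adjusted p = 0.153) with the median over spots. Its close relative Fosb ran from -3.80 to -2.09 in G20 and from -4.16 to -3.71 in NC, with a difference of 0.94 ± 0.42 (adjusted p = 0.196). Jun, the partner of Fos in the classical AP-1 dimer, ran from 0.74 to 1.74 in G20 and from -0.51 to 1.37 in NC, with a difference of 0.77 ± 0.37 (adjusted p = 0.237).

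Junb, a weaker activator of the Jun family, ran from 4.73 to 5.16 in G20 livers and from 3.54 to 4.81 in NC livers. Its difference was 0.82 ± 0.27 (limma adjusted p = 0.0894), and its second probe gave 0.69 ± 0.23 (adjusted p = 0.0998). Ier2, a small nuclear protein of the early response, ran from 3.47 to 3.94 in G20 and from 2.49 to 3.58 in NC, and its difference was 0.78 ± 0.25 (adjusted p = 0.0839). The second Ier2 probe gave -0.20 ± 0.31 (adjusted p = 0.753), so the probes of Ier2 did not point the same way. Egr1 ran from 2.72 to 3.50 in G20 and from 1.30 to 2.76 in NC, with a difference of 1.09 ± 0.46 (adjusted p = 0.175). Unadjusted p was under 0.05 for 8 of the 10 members, all but Fos and Jun, and for 23.7% of all genes.

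**Figure D1:**
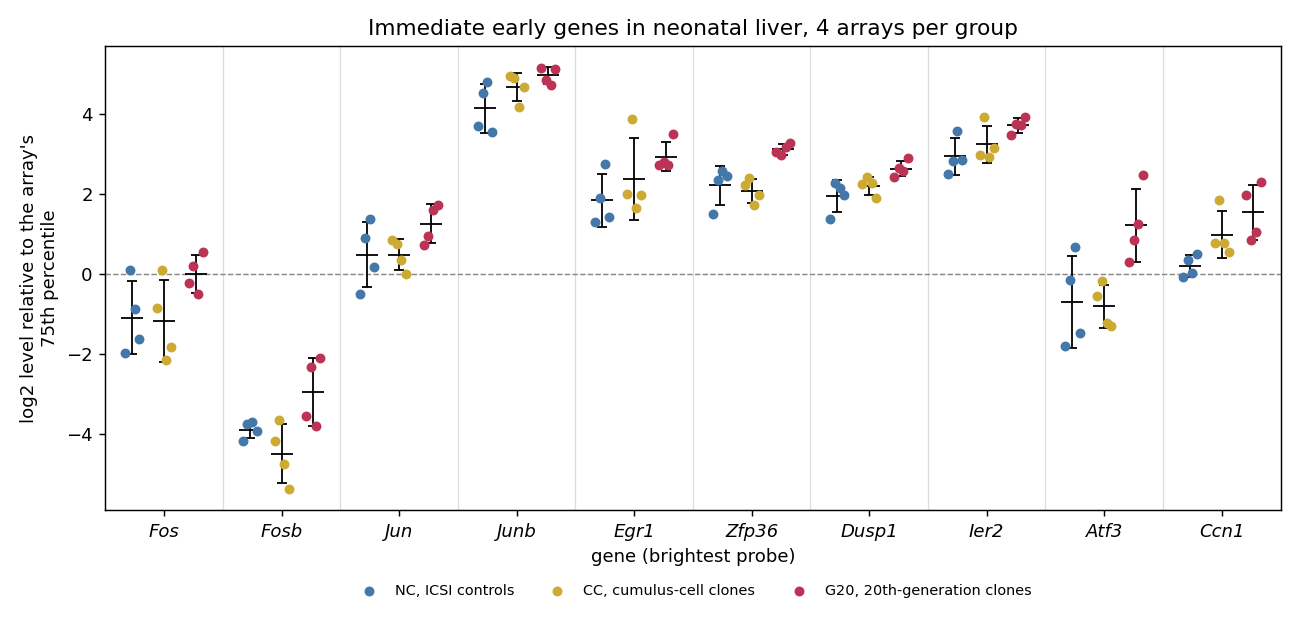
Levels of the 10 genes in liver (y axis, log2 relative to the array's 75th percentile; x axis, gene), with 1 point per array, the group mean as a dash and the SD as bars, for NC (blue), CC (yellow) and G20 (red). The G20 points of Zfp36, Dusp1 and Ccn1 all lie above the NC points, and the NC points of Fos, Jun and Atf3 are widely spread; the Fos point of NC replicate 2 includes the stray spot.

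The calls in liver rested on few arrays. Among 21 alternatives, Zfp36 lost its call in 6, Ccn1 in 8 and Dusp1 in 17, and the highest adjusted p was 0.0784 for Zfp36, 0.101 for Ccn1 and 0.121 for Dusp1. The count of called members was 0 without G20 replicate 1 or without G20 replicate 4. It was 1 without NC replicate 1, NC replicate 2, CC replicate 3, G20 replicate 2 or G20 replicate 3. It was 4 without NC replicate 3 and 7 with normexp. Of all genes 1196 were called in the main fit. The number was 1071 without G20 replicate 1, 683 without G20 replicate 4, 833 without NC replicate 3 and 5059 of 16364 with normexp. Of all called genes in this comparison 58.9% were higher in G20, a share that was 51.9% after quantile normalization, 35.2% after centring on the median and 16.5% with normexp, while the called members were all higher under each of these.

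The levels of other cell types' markers in liver stood as follows in NC and G20. Macrophage markers (6 of 6 well above background on all 12 arrays) summed to 4.82 to 5.18 in NC and 4.90 to 5.11 in G20. Endothelial markers (6 of 6) summed to 3.36 to 3.53 and 3.41 to 3.57. Neutrophil markers (5 of 6 measured on every array) summed to 9.26 to 9.45 and 9.23 to 9.37. Erythroid markers (3 of 6 measured on every array) summed to 6.65 to 6.90 and 6.45 to 6.72. None of the markers of these 4 lists was called higher in G20, and 1 endothelial marker was called lower. Of the hepatocyte markers 1 was called lower. Their part in the differences of the members was not tested.

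Among other genes that respond to the same stimuli, 7 were called higher and 2 lower of 109 measured in liver, or 8.26%, which is near the 7.31% of all genes. The lists of related genes, like the members, were chosen with earlier results of these data known. Among inducible genes that do not encode transcription factors, 5 of 29 were called higher and 1 lower in G20 (median difference 0.35). Among other inducible transcription factors 1 of 18 was called higher (median 0.21), among other AP-1 and ATF genes 0 of 12 (median 0.09), among MAP kinase phosphatases and mRNA decay factors 0 of 13 (median 0.01), among heat shock genes 0 of 10 (median 0.12), and among upstream kinases and factors 1 of 27 higher and 1 lower (median -0.09). Hbegf, a growth factor of the EGF family, rose by 1.09 ± 0.20 (limma adjusted p = 0.00909), from -1.95 ± 0.22 (SD) in NC to -0.86 ± 0.31 in G20. Csrnp1, a nuclear protein that Axin induces, rose by 0.90 ± 0.20 (adjusted p = 0.021). Trib1, a pseudokinase, rose by 0.51 ± 0.12 (adjusted p = 0.0249), and Sik1, a salt-inducible kinase that restrains CREB coactivators, by 0.61 ± 0.15 (adjusted p = 0.0314). Cdkn1a, the cell cycle inhibitor p21, was lower, at 0.54 ± 0.18 in G20 and 1.27 ± 0.22 in NC (adjusted p = 0.017). Elk3, a partner of serum response factor, was lower by a small margin, at 1.54 ± 0.15 against 1.86 ± 0.04 (adjusted p = 0.0362).

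In brain no member was called between G20 and NC. The 10 differences had a median of 0.14, with a median of 0.03 over all genes. Of the 18299 genes tested 1.77% were called, and 0 of 10 members were. At an unadjusted p under 0.05 the count of members was 1, which was Jun, against 19.3% of all genes, and no alternative called any member. Jun read 0.60, 0.68, 0.49 and 0.66 in G20 brains and 0.20, 0.38, 0.41 and 0.44 in NC brains. Every G20 array lay above every NC array, a pattern found for 7.41% of all genes, and the difference was 0.25 ± 0.07 (limma adjusted p = 0.0966).

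Fos in brain read -2.02, -1.80, -1.73 and -1.68 in G20 and -2.34, -2.25, -2.10 and -1.04 in NC. NC replicate 4 was above every other brain, and the difference was 0.13 ± 0.27 (limma adjusted p = 0.831; 95% interval -0.46 to 0.72). Fosb had the widest difference, -1.04 ± 0.54 (adjusted p = 0.314), with NC brains spread from -5.44 to -2.92 and G20 brains from -5.53 to -4.82. The Fosb signal before scaling was dim, from 18.7 to 26.1 in G20 and from 21.6 to 107 in NC. With normexp the Fosb difference turned to 0.13 (adjusted p = 0.953). Egr1 differed by 0.27 ± 0.26 (adjusted p = 0.61; 95% interval -0.31 to 0.84), Dusp1 by 0.15 ± 0.11 (adjusted p = 0.452; -0.08 to 0.39) and Zfp36 by -0.04 ± 0.23 (adjusted p = 0.943; -0.53 to 0.46). Junb, Ier2, Atf3 and Ccn1 differed by between 0.09 and 0.40, with adjusted p between 0.387 and 0.793. None of the 6 related lists, with 113 genes measured, held a called gene in this comparison. Erythroid markers (5 of 6 measured on every array) summed to 4.93 to 6.32 in NC brains and 6.22 to 6.75 in G20 brains, and microglia markers to 1.50 to 1.65 and 1.13 to 1.40. Their part in the members' values was not tested.

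Whether G20 and NC differed more in liver than in brain was tested as the difference of the 2 differences. All 10 were negative, that is, the estimate of G20 minus NC was lower in brain than in liver, with a median of -0.88 and a median of -0.01 over all genes. No member was called (0 of 10), where 3.85% of 14766 genes were. Unadjusted p was under 0.05 for 7 of the 10 members and for 19.5% of all genes. Zfp36 gave -0.94 ± 0.33 (limma adjusted p = 0.108), Fosb -1.98 ± 0.72 (adjusted p = 0.124) and Atf3 -1.70 ± 0.66 (adjusted p = 0.15). Fosb changed sign under normexp, to 1.00 (adjusted p = 0.345). The difference between tissues was thus not established for any single member.

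**Figure D2:**
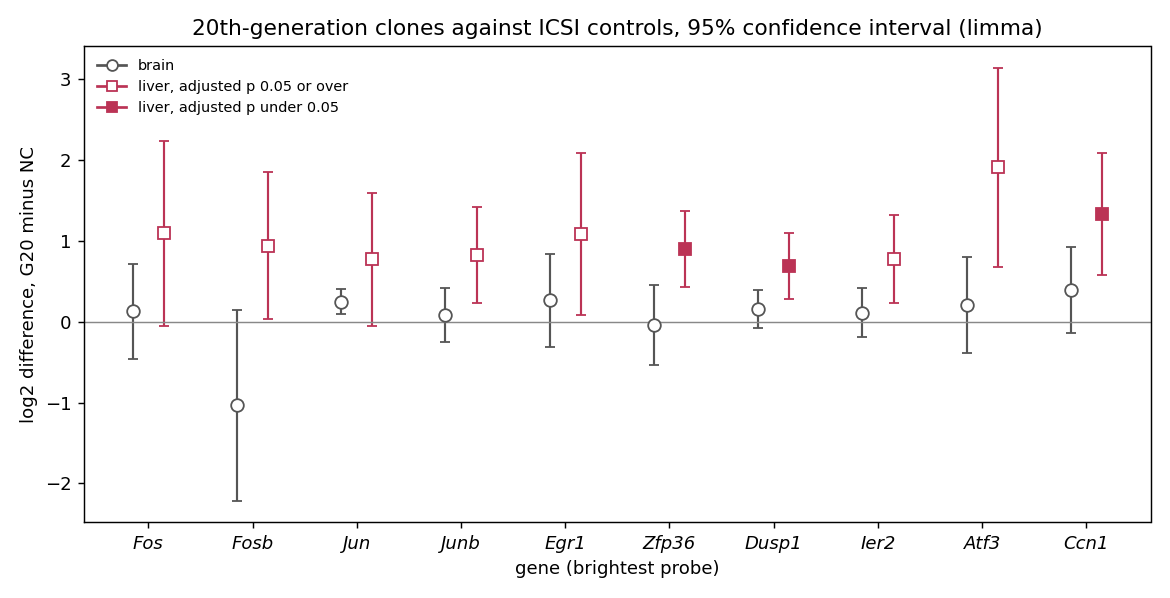
Differences between G20 and NC (y axis, log2; x axis, gene) in brain (grey circles) and liver (red squares), with 95% confidence intervals from limma; filled symbols have an adjusted p under 0.05. The liver values run from 0.69 to 1.91, with Zfp36, Dusp1 and Ccn1 filled, and the brain values from -1.04 to 0.40, with none filled.

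Against the first clones, G20 liver again had the higher mean for all 10 genes by their brightest probes, against 50.6% of all genes, and 3 were called: Fosb, Zfp36 and Atf3. The second Junb probe, tested on its own, gave -0.017 ± 0.23 (limma adjusted p = 0.961), whereas the brighter one gave 0.29 ± 0.27. The background in this comparison was high, with 45% of 16364 genes called and 24.6% called higher, so that 3 of 10 higher is near the share of all genes. The means were higher for 9 genes with normexp and for 5 in the authors' deposited matrix, where Fos, Fosb, Egr1, Ier2 and Ccn1 turned negative and the median of the 10 was -0.0045, against 0.67 here. Zfp36 read 2.22, 2.41, 1.73 and 1.98 in CC livers, all below the G20 values above, and differed by 1.04 ± 0.22 (limma adjusted p = 0.00243). Atf3 read -0.55, -0.16, -1.21 and -1.30 in CC, also all below G20, and differed by 2.03 ± 0.57 (adjusted p = 0.0124). In the authors' deposited matrix neither was called, with 0.16 for Zfp36 and 0.28 for Atf3. All 4 G20 arrays lay above all 4 CC arrays for Zfp36, Dusp1 and Atf3, and for 22.3% of all genes. Fosb read -4.18, -3.64, -4.75 and -5.38 in CC and -3.55, -2.33, -3.80 and -2.09 in G20, and differed by 1.55 ± 0.42 (adjusted p = 0.0106), but 2 of the 4 CC arrays were not well above background, so that value is no measured size, and it turned to -0.39 with normexp and -0.62 in the authors' deposited matrix. Fos differed by 1.18 ± 0.52 (adjusted p = 0.0845) and Dusp1 by 0.43 ± 0.19 (adjusted p = 0.0817). Without CC replicate 2, the liver in which all 10 members were above their CC mean, the count of called members was 6. In that setting 6774 of 16400 genes were called.

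CC and NC livers showed no called member, where 40.7% of 16365 genes were called; at an unadjusted p under 0.05 the count was 1, against 49.2% of all genes. That was Ccn1, which read 0.77, 1.85, 0.79 and 0.55 in CC, all above NC (0.79 ± 0.35, limma adjusted p = 0.089). All 4 CC arrays lay above all 4 NC arrays for 18.8% of all genes. Jun averaged 0.49 ± 0.82 (SD) in NC and 0.49 ± 0.39 in CC, and Fos differed by -0.09 ± 0.52 (adjusted p = 0.909). The second Junb probe, tested on its own, was higher in CC (0.70 ± 0.23, adjusted p = 0.0311), whereas the brighter one gave 0.53 ± 0.27 (adjusted p = 0.141). Without NC replicate 3 the count of called members was 1, where 5702 of 16389 genes were called. In the authors' deposited matrix all 10 means were higher in CC, with a median of 1.08 against 0.13 here, Ier2 (0.88) and Ccn1 (1.44) were called, and Fos was at 1.52 (adjusted p = 0.0815). Markers of several cell types moved with the CC group in liver: 5 of 6 hepatocyte markers and 3 of 6 neutrophil markers were called lower in CC than in NC and 3 of 6 endothelial markers higher. Of 3 neuron markers tested 2 were called higher in CC, and the neuron sum was -0.88 to 1.15 in CC and -1.65 to -1.37 in NC. Endothelial markers summed to 3.71 to 3.85 in CC, 3.36 to 3.53 in NC and 3.41 to 3.57 in G20, and neutrophil markers to 8.71 to 8.85, 9.26 to 9.45 and 9.23 to 9.37. Their part in the members' values was not tested. Both comparisons with CC liver share their other arrays with G20 against NC, so the 3 sets of values are not independent.

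Among related genes in liver, Klf2, a zinc-finger factor of quiescent cells and endothelium, was lowest in CC, at 2.94 ± 1.21 (SD) against 5.96 ± 0.15 in NC and 6.12 ± 0.20 in G20 (CC against NC, limma adjusted p = 2.99e-04; G20 against CC, adjusted p = 1.64e-04). The chaperone Hspa8 by its brightest liver probe was at 4.42 ± 0.58 in CC, 6.40 ± 0.08 in NC and 6.05 ± 0.02 in G20 (CC against NC, adjusted p = 3.44e-05; G20 against CC, adjusted p = 1.14e-04). By another Hspa8 probe the means were 3.94, 4.32 and 3.88, so the 2 probes gave opposite directions for G20 against CC. Creb1, the factor at cyclic AMP response elements, was higher in CC than in NC by 0.65 ± 0.11 (adjusted p = 7.79e-04). Its coactivator Crtc3 was lower in CC than in NC (-1.08 ± 0.14, adjusted p = 9.58e-05). Tiparp, a poly-ADP-ribose polymerase family enzyme, was higher in CC than in NC by 1.05 ± 0.19 (adjusted p = 0.00107). Gadd45a, a growth arrest gene, was higher in G20 than in CC by 1.03 ± 0.14 (adjusted p = 1.13e-04). Over the 6 related lists 14 genes were called higher and 16 lower in CC than in NC, and 30 higher and 11 lower in G20 than in CC, of 109 measured. The called share was 27.5% for CC against NC, below the 40.7% of all genes, and 37.6% for G20 against CC, below the 45% of all genes.

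In brain the members split in both directions between CC and NC, where 69.3% of all genes were called, 41.5% higher and 27.8% lower. Jun and Junb were called higher in CC, while Fos, Fosb, Zfp36 and Dusp1 were called lower. The 6 of 10 called are below the share of all genes. Jun read 1.25, 1.23, 1.16 and 1.24 in CC against 0.20 to 0.44 in NC, a difference of 0.86 ± 0.07 (limma adjusted p = 7.48e-07), which was 0.15 in the authors' deposited matrix (adjusted p = 0.352). The 4 CC brains lay within 0.08 of each other and above every NC brain, a pattern found for 38.4% of all genes. Before scaling, the Jun signal ran from 932 to 1103 in CC and from 1051 to 1215 in NC. Jun was therefore higher in CC only after scaling. Fos read -2.94, -2.75, -3.70 and -3.23 in CC, below every NC brain, a difference of -1.22 ± 0.27 (adjusted p = 0.00159). That call ended with normexp (-0.13, adjusted p = 0.816) and in the authors' deposited matrix (-0.18, adjusted p = 0.787). All 4 CC brains lay below all 4 NC brains for Fos, Zfp36 and Dusp1, and for 25.3% of all genes. Dusp1 read 0.18, 0.34, 0.39 and 0.34 in CC and 0.88, 0.70, 0.65 and 1.03 in NC, a difference of -0.50 ± 0.11 (adjusted p = 0.00122).

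Zfp36 read -2.82, -2.81, -3.02 and -3.01 in CC brains and -2.22, -2.66, -2.74 and -1.61 in NC brains, a difference of -0.61 ± 0.23 (limma adjusted p = 0.0297). Its second probe was not well above background on any brain array. Among 21 alternatives the Zfp36 call was lost in 6 with its direction kept, and the direction turned in 2. Fosb passed the threshold (-1.46 ± 0.54, adjusted p = 0.029), but 3 of its 4 CC arrays were not well above background, so neither the size nor the call rests on measured CC levels. Junb, with 3 CC arrays because 1 spot was an outlier, differed by 0.41 ± 0.16 (adjusted p = 0.0427). Among 21 alternatives the Junb call was lost in 12 with its direction kept, and the direction turned in 1. Normexp was among the 12 (0.29, adjusted p = 0.225). Before scaling, the Junb signal ran from 1301 to 1365 in CC and from 1512 to 2353 in NC, so Junb too was higher in CC only after scaling. The other Junb probe, with all 4 CC arrays, differed by 0.07 ± 0.14 (adjusted p = 0.681). Egr1, Ier2, Atf3 and Ccn1 were not called, with differences between -0.29 and 0.24. The directions of Fosb and Zfp36 turned with normexp, and those of Fosb, Zfp36, Junb and Dusp1 turned in the authors' deposited matrix. Without CC replicate 3 or without CC replicate 4 the count of called members was 3. In these settings 12398 of 18347 and 12264 of 18308 genes were called.

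Between G20 and CC brains 4 of 10 members were called, below the 67.6% of all genes. Called higher were 3 of 10, near the 28.6% of all genes, and called lower 1 of 10, below the 39% of all genes. Fos was higher in G20 by 1.35 ± 0.27 (limma adjusted p = 8.43e-04), Dusp1 by 0.66 ± 0.11 (adjusted p = 1.89e-04) and Zfp36 by 0.57 ± 0.23 (adjusted p = 0.0405), and Jun was lower (-0.61 ± 0.07, adjusted p = 1.27e-05). For each of these 4 genes the G20 and CC arrays did not overlap; 24.9% of all genes had every G20 array above every CC array and 34.8% every one below. Zfp36 turned to -0.12 with normexp and to -0.079 in the authors' deposited matrix, where Jun turned to 0.083. In 8 others of the 21 alternatives Zfp36 kept its direction but lost its call. Fos lost its call with normexp (0.41, adjusted p = 0.546) and in the matrix (0.28, adjusted p = 0.888), and Dusp1 in the matrix (0.058, adjusted p = 0.946). Before scaling, the Jun signal ran from 1158 to 1308 in G20 and from 932 to 1103 in CC, so Jun was lower in G20 only after scaling. The values of this comparison share the CC arrays with the comparison above.

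Of the related genes in brain, 57 were called higher and 27 lower in CC than in NC out of 113 measured, a called share of 74.3% against 69.3% of all genes. Cebpd, a C/EBP factor of the acute response, was at 1.39 ± 0.05 (SD) in CC, -0.02 ± 0.18 in NC and 0.31 ± 0.23 in G20. The co-chaperone Dnajb1 was at 4.76 ± 0.08 in CC, 3.66 ± 0.12 in NC and 3.85 ± 0.14 in G20. Rhob, a small GTPase whose mRNA turns over fast, was at -0.47 ± 0.50 in CC, 1.49 ± 0.05 in NC and 1.47 ± 0.05 in G20. Arc, a synaptic protein induced by neuronal activity, was at -0.70 ± 0.08 in CC and -1.73 ± 0.21 in G20 (limma adjusted p = 6.30e-06). Microglia markers moved with the CC group in brain: their sum reached 2.22 in CC, 1.65 in NC and 1.40 in G20, and CC did not overlap with either, with 4 of 6 called higher in CC than in NC. Of the endothelial markers 3 of 6 were called higher, with sums of 4.19 to 4.35 in CC and 3.87 to 4.10 in NC, and of 4 hepatocyte markers tested 3 were higher (median 1.81). Neuron markers were called lower for 3 of 6 and higher for 1, and so were glia markers. Their part in the members' values was not tested.

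**Figure D3:**
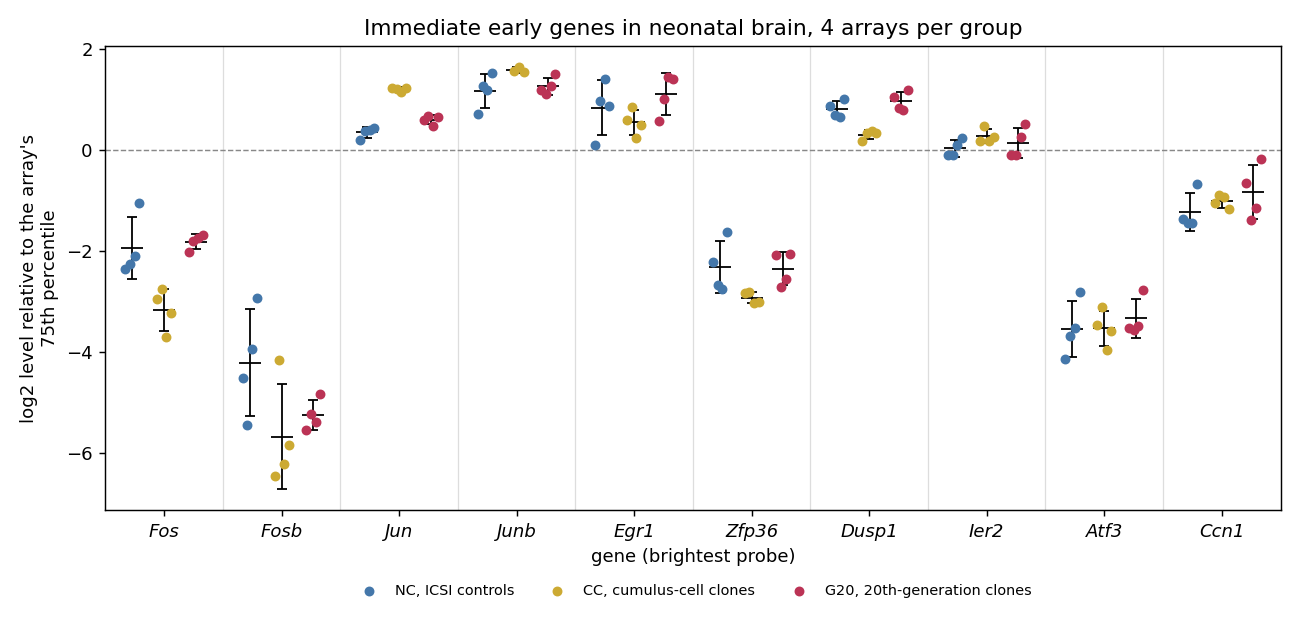
Levels of the 10 genes in brain (y axis, log2 relative to the array's 75th percentile; x axis, gene), with 1 point per array, the group mean as a dash and the SD as bars, for NC (blue), CC (yellow) and G20 (red). The CC points of Jun lie between 1.16 and 1.25, above the other groups, and those of Fos, Zfp36 and Dusp1 lie below both.

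The change with CC was compared between tissues as well. Dusp1 was called for CC against NC (-0.76 ± 0.22, limma adjusted p = 0.0066), with -0.50 in brain and 0.26 in liver, where 54% of all genes were called, 19.4% in this direction. With the animal as a random block Jun was called too (adjusted p = 0.0499), so that the count was 2. For G20 against CC, Jun was called (-1.39 ± 0.40, adjusted p = 0.00594), with -0.61 in brain and 0.77 in liver. Atf3 was called too (-1.83 ± 0.66, adjusted p = 0.0241), with 0.20 in brain and 2.03 in liver. The share of all genes called was 52.8%, and 34.4% were called in this direction. Atf3 lost the call without CC liver replicate 4 (adjusted p = 0.0502) and without G20 liver replicate 4 (adjusted p = 0.0619). For CC against NC the count was 2 without liver NC replicate 1, liver NC replicate 2, liver CC replicate 1 or liver CC replicate 3, Jun being added in the first and the third of these and Fos in the others.

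Between the tissues of control pups, all 10 genes had lower mean levels in brain than in liver, and 7 were called. Of all 14767 genes tested, 88% were called and 50.8% were called lower in brain. The share of all genes with a lower mean in brain, called or not, was not computed. Each tissue was scaled to its own 75th percentile and NC brain and liver were scanned in different sessions. CC brain and liver shared a session, and there Zfp36 was at -2.92 ± 0.11 and 2.08 ± 0.30, Junb at 1.59 ± 0.05 (n = 3) and 4.67 ± 0.35, Ier2 at 0.28 ± 0.14 and 3.25 ± 0.46 and Atf3 at -3.52 ± 0.35 and -0.81 ± 0.54. Jun went the other way in CC, at 1.22 ± 0.04 in brain and 0.49 ± 0.39 in liver. The means of all other members were lower in CC brain than in CC liver. Brain against liver was not tested in CC. Zfp36 stood at -2.31 ± 0.52 (SD, n = 4) in NC brain and 2.22 ± 0.49 in NC liver (difference -4.53 ± 0.23 SE, limma adjusted p = 2.26e-14). Junb was at 1.18 ± 0.34 and 4.14 ± 0.62 (-2.96 ± 0.23, adjusted p = 9.30e-11), Ier2 at 0.04 ± 0.16 and 2.94 ± 0.46 (-2.90 ± 0.21, adjusted p = 1.28e-11) and Atf3 at -3.54 ± 0.55 and -0.69 ± 1.15 (-2.85 ± 0.47, adjusted p = 6.76e-06). Ccn1 differed by -1.43 ± 0.31, and Dusp1 by -1.13 ± 0.16. Egr1 was at 0.85 ± 0.54 and 1.85 ± 0.66 (adjusted p = 0.0221). Egr1 lost its call with normexp (adjusted p = 0.175), with quantile normalization (adjusted p = 0.0516), without brain NC replicate 1 (adjusted p = 0.0912) and without liver NC replicate 3 (adjusted p = 0.106). Fos (-0.84 ± 0.44, adjusted p = 0.0758), Fosb (-0.32 ± 0.51, adjusted p = 0.558) and Jun (-0.13 ± 0.28, adjusted p = 0.665) were not called, and their brain and liver arrays overlapped. Among 31 alternatives Fos was called lower in brain in 7, among them normexp (adjusted p = 0.0109) and median scaling (adjusted p = 0.01). Fosb was called lower in 1, which was normexp (-1.84, adjusted p = 0.00544), and Jun in none. The median over all genes was -0.30.

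The order of the 6 groups differed from gene to gene. For Zfp36 the liver groups were G20 at 3.12 ± 0.14 (SD), NC at 2.22 ± 0.49 and CC at 2.08 ± 0.30, of which NC and CC did not differ beyond their spread, followed by brain NC and G20 at -2.31 ± 0.52 and -2.34 ± 0.32 and brain CC at -2.92 ± 0.11. For Jun the highest mean was liver G20 at 1.26 ± 0.49, followed by brain CC at 1.22 ± 0.04, brain G20 at 0.61 ± 0.09, both other liver groups at 0.49 and brain NC at 0.36 ± 0.11. For Fos, liver G20 at 0.00 ± 0.47 was followed by liver NC at -1.09 ± 0.91, liver CC at -1.18 ± 1.02, brain G20 at -1.81 ± 0.15, brain NC at -1.93 ± 0.61 and brain CC at -3.15 ± 0.41, and neighbours in this order overlapped apart from brain NC and brain CC.

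Within a group, most members varied more between arrays than most genes did. The pooled within-group SD in liver was 0.91 for Atf3, 0.84 for Fos, 0.73 for Egr1, 0.67 for Fosb and 0.60 for Jun, against a median of 0.19 over 16365 genes. The 10 members ranged from the 76.7th percentile of all genes (Dusp1) to the 98.7th (Atf3). In brain the median over all genes was 0.15. Fosb (0.87), Atf3 (0.44), Fos (0.43), Egr1 (0.42), Ccn1 (0.39) and Zfp36 (0.36) lay between the 91.9th and the 99.5th percentile, whereas Dusp1 (0.16) was near the median and Jun (0.08) was at the 9.80th percentile. By these ranks Jun was among the steadier genes in newborn brain and among the more variable ones in newborn liver. The values of Jun and Fos average up to 10 spots, whereas those of the other members rest on 1 spot. Averaging lowers spot noise, so the rank of Jun is not strictly like for like. These spreads were not tested.

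The deviations ran together across members. Of the 45 pairs of members, the correlation of deviations from the group mean over the arrays of a tissue was positive for 45 in liver (median r 0.62, from 0.22 to 0.94) and for 43 in brain (median r 0.51, from -0.34 to 0.86). Arrays share depth and slide within a group, and these values are a description. In liver, NC replicate 1 was below its group mean in all 10 members (mean deviation -0.63), CC replicate 4 in all 10 (-0.39), and CC replicate 2 (0.69) and G20 replicate 4 (0.52) were above theirs in all 10. In brain, NC replicate 4 (0.50) and G20 replicate 4 (0.33) were above their group means in all 10.

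**Figure D4:**
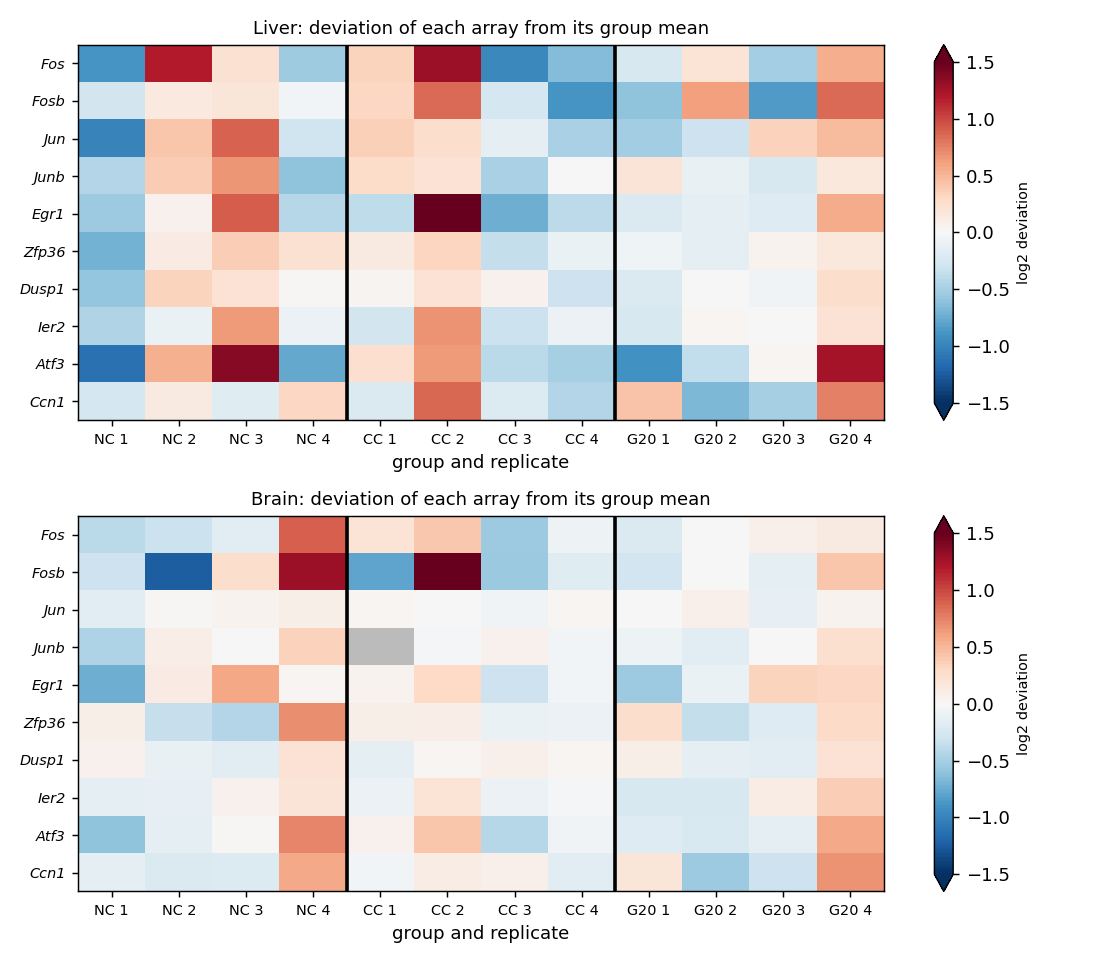
Deviation of each array (x axis, group and replicate) from its group mean for each gene (y axis) in liver and brain, with colour from blue (-1.5 log2) to red (1.5 log2) and grey for 1 value not measured. Columns of 1 colour mark arrays in which the members deviate together, such as liver NC replicate 1 (below in 10 of 10), liver CC replicate 2 and brain NC replicate 4 (above in 10 of 10).

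Likeness to Fos was measured as the Pearson r of deviations over 12 arrays of a tissue, with an exact permutation within groups and adjustment over the 18 relations computed. In brain, Atf3 followed Fos (r = 0.86, rho = 0.85, exact permutation p = 2.17e-04, adjusted 0.00391; r = 0.70 without the 2 arrays farthest in Fos), as did Ier2 (r = 0.59, rho = 0.59, exact permutation p = 0.00253, adjusted 0.0226; r = 0.67 without those 2). In liver, Fosb did (r = 0.73, rho = 0.75, exact permutation p = 0.00376, adjusted 0.0226; r = 0.77 without those 2). These p-values are those of r. For rho the exact permutation adjusted p was 0.00651 for Atf3 and 0.0579 for Ier2 in brain, and 0.0356 for Fosb in liver. By rho, Egr1 (adjusted p = 0.015) and Atf3 (adjusted p = 0.0423) in liver passed too. With the median over spots 6 of the 18 relations passed by r, Egr1, Dusp1 and Atf3 in liver being added. Without the 2 arrays farthest in Fos 2 passed, which were Egr1 in brain and Egr1 in liver.

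Over all genes with a value on every array, those most like Fos in brain were Lancl1 (r = 0.95), Cd59a (0.95), 2610301B20Rik (0.94), Sec61b (0.91), AK046200 (0.91) and Fkbp8 (0.90), of 18191 genes. Atf3 ranked 23 and Fosb 160. In liver the most like were Foxk1 (r = 0.95), Psd4 (0.93), 2010109K11Rik (0.92), Ddx11 (0.91), Pnpt1 (0.90) and 4930473O22Rik (0.90), of 16222 genes. Nr4a1, an orphan receptor and immediate early gene that is no member here, ranked 12 (r = 0.87), Klf4 ranked 27 (0.82), Egr1 112 and Fosb 169. The liver ranks include the stray Fos spot of NC replicate 2. An r above 0.8 was reached by 0.396% of genes in brain and 0.333% in liver.

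The same pups, as far as shared numbers show, gave both tissues, and for Ccn1 the deviations in brain and liver ran together over the 12 number-matched pairs (r = 0.78, rho = 0.78, exact permutation p = 0.00159, adjusted over 10 genes 0.0159; r = 0.75 without the 2 farthest brains). For Egr1 r was 0.66 (rho = 0.73, exact permutation p = 0.0115, adjusted 0.0575) and for Ier2 0.57 (rho = 0.59, exact permutation p = 0.0209, adjusted 0.0697). The other 7 genes had r between -0.16 and 0.42. These p-values are those of r. For rho the exact permutation p, not adjusted, was 0.0258 for Ccn1, 0.00203 for Egr1 and 0.0307 for Ier2. For G20 the matching of tissues rests on title numbers alone.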

How the data were processed

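The members and all gene lists were chosen with earlier results of these data known. Cy3-labelled cRNA from 0.5 ug of RNA was read on single-colour arrays, and the deposited intensities are the processed signals of Agilent Feature Extraction 9.5.3.1, per the submitters' processing notes; per the file headers it had subtracted background and corrected spatial trends. Other deposited columns (0 or 1) flag spots as outliers, saturated or well above background. The authors' deposited matrix holds linear intensities; its scaling is not stated, and its CC columns differ from the scanner signal by a further factor per probe. The SD of the log2 ratio of matrix to scanner signal was 0.63 to 0.66 in CC columns and 0.01 to 0.06 in the others. The matrix columns' medians were 354 to 393 in brain NC and G20, 463 to 489 in brain CC, 224 to 283 in liver NC and G20 and 299.9 to 341 in liver CC. It served as an alternative only.

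From these, log2 of the deposited processed intensity minus each array's 75th percentile was computed, control and outlier spots were left out, spots of a probe were averaged, and the brightest probe stood for a gene. Of 41174 probes, 23374 were named through their accession and 17800 by the name in the file. A gene was tested in a tissue if its probe was well above background on every array of at least 1 group. limma 3.58.1 (R 4.3.3) was fitted within each tissue over 3 groups of 4, and over both tissues for their differences; p-values were Benjamini-Hochberg adjusted over all genes, with a threshold of 0.05. The fit was tested on simulated data for G20 against NC. Over 16223 genes in liver it recovered 81 of 100 changes of 1 and 95 of 100 of 2 on the log2 scale. Over 18192 genes in brain it recovered 92 and 99 of 100. The changed genes were drawn at random from all genes, whereas all members lay above the median spread in liver. These rates therefore do not describe the members. Named genes were all members and, in each comparison, up to 6 related genes with the lowest adjusted p among those called.

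Shared replicate numbers did not pair the groups of a tissue (r of same-numbered deviations -0.23 to 0.13); between same-numbered brain and liver arrays of a group r was 0.02 to 0.32. The numbers are part of the animal names for NC and CC and only of the titles for G20. Alternatives were normexp (offset 50), median and quantile scaling, no filter on dim probes, every probe on its own, 2 groups only, a replicate block, each array left out, the authors' matrix and, added after the data were seen, the median over spots.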

Additional observations from a re-analysis of the deposited data

Results flagged for a closer look

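In 4 of 59 groups of 4 arrays a single array stood far from the other three by Dixon's test, where chance gives about 5%. Atf3 in brain G20 replicate 4 was at -2.76, against -3.56 to -3.47 on the other arrays. Ccn1 in brain NC replicate 4 was at -0.66, against -1.44 to -1.37. Egr1 in liver CC replicate 2 was at 3.89, against 1.64 to 1.99, and in liver G20 replicate 4 at 3.50, against 2.72 to 2.80. On each of these 4 arrays all 10 members were above their group means.

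The change between groups differed between brain and liver for 3 results by limma's test of the difference. For CC against NC, Dusp1 gave -0.76 (limma adjusted p = 0.0066), 1 of 10 members where 54% of all genes were called. For G20 against CC, Jun gave -1.39 (adjusted p = 0.00594) and Atf3 -1.83 (adjusted p = 0.0241), 2 of 10 members where 52.8% were called. Both counts are below the share of all genes. Atf3 lost its call without liver CC replicate 4 and without liver G20 replicate 4. CC arrays had a scan session of their own, which cannot be told apart from the group.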

How the results depend on the processing

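Counts of called members moved by over 1.5 times as follows. With normexp they were 2 (brain CC against NC), 2 (brain G20 against CC), 7 (liver G20 against NC) and 0 (tissue difference of CC against NC), and in the authors' deposited matrix 0, 0, 2 and 0 for brain CC against NC, brain G20 against CC, liver CC against NC and liver G20 against CC. With only the 2 groups compared, liver CC against NC gave 1 and liver G20 against CC 5. Without the filter on dim probes liver G20 against NC gave 1. With a replicate block it gave 0, and the block of the animal gave 2 for the tissue difference of CC against NC; the numbers do not pair the groups of a tissue. With the median over spots 6 relations to Fos passed. Leaving out 1 array gave 0 to 0 for brain G20 against NC, 3 to 6 for brain CC against NC, 3 to 6 for brain G20 against CC, 0 to 4 for liver G20 against NC, 0 to 1 for liver CC against NC, 3 to 6 for liver G20 against CC, and 0 to 0, 1 to 2 and 1 to 3 for the tissue differences of G20 against NC, CC against NC and G20 against CC, and 6 to 8 for brain against liver. Signs reversed in brain CC against NC for Fosb (0.68 with normexp, 0.66 in the matrix), Zfp36 (0.36 and 0.016), Junb (-0.60 in the matrix) and Dusp1 (0.089 in the matrix), in brain G20 against CC for Zfp36 (-0.12 and -0.079) and Jun (0.083 in the matrix), and in liver G20 against CC for Fosb (-0.39 and -0.62). The cause was not tested. Over all genes, calls fell with normexp from 324 to 2 (brain G20 against NC), 12681 to 5331 (brain CC against NC), 12361 to 3818 (brain G20 against CC), 6659 to 229 (liver CC against NC), 7361 to 2207 (liver G20 against CC), and 568 to 181, 7980 to 1710 and 7802 to 3100 for the tissue differences of G20 against NC, CC against NC and G20 against CC, and rose from 1196 to 5059 (liver G20 against NC). In the matrix they were 116, 232, 1390 and 32 for brain CC against NC, brain G20 against CC, liver CC against NC and liver G20 against CC. With the replicate block they were 149 for brain and 722 for liver G20 against NC, and with the animal block 1002 for the tissue difference of G20 against NC. With no filter they were 141 and 20205 for brain G20 and CC against NC, 19688 for brain G20 against CC (18582 with every probe), 10039 for liver CC against NC, 14582 for liver G20 against CC, 970 for the tissue difference of G20 against NC and, from 12990, 24582 for brain against liver. With 2 groups only, brain G20 against NC gave 155. Leaving out 1 array gave 135 to 529 for brain G20 against NC, and for liver 639, 609, 592 and 683 without NC replicate 1, NC replicate 2, G20 replicate 2 and G20 replicate 4. The share of called genes that were higher moved from 69.8% to 58.9% (median scaling), 58.5% (quantile) and 50% (normexp) in brain G20 against NC, from 42.3% to 30.7% (median scaling) in brain G20 against CC, from 56.0% to 85.6% (normexp) and 69.2% (median scaling) in the tissue difference of G20 against NC, and in liver from 48.4% to 14.0% (normexp) for CC against NC and 54.7% to 36.7% (median scaling) for G20 against CC. Normexp moved the median of all genes from 0.13 to 0.39 in brain CC against NC and from -0.09 to -0.26 in brain G20 against CC. The matrix was not run for comparisons across tissues. Dim signal limits Fosb in CC and the second probes of Zfp36 and Ier2 in brain.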
